A study of Mus musculus with 11 samples.

Results

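Amino acid transporters of 7 solute carrier families were followed in nEnd (naive extra-embryonic endoderm), a mouse stem cell culture used as a model of the primitive endoderm, the layer of the blastocyst that later forms the yolk sac endoderm. The genes were chosen by name alone: every gene of the bulk count table whose symbol is Slc1a, Slc3a, Slc6a, Slc7a, Slc36a, Slc38a or Slc43a followed by a number was taken, which gave 61 of 48952 genes. There were 7 Slc1a, 2 Slc3a, 19 Slc6a, 15 Slc7a, 4 Slc36a, 11 Slc38a and 3 Slc43a genes, and all 61 were also listed in the single-cell tables.

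Amino acids cross the plasma membrane through carriers that differ in what they bind and in what drives them. System A carriers (Slc38a) use the sodium gradient to concentrate small neutral amino acids such as alanine and glutamine, whereas the light chains of the Slc7a family are exchangers that reach the surface bound to a heavy chain, Slc3a2 (CD98) or Slc3a1, and trade one amino acid for another. Cationic amino acid transporters, also in Slc7a, carry arginine and lysine without a heavy chain. Slc1a carriers take up glutamate, aspartate or neutral amino acids, Slc36a carriers move amino acids with protons, Slc43a carriers include facilitators for large neutral amino acids, and Slc6a carriers use sodium and chloride to bring in neurotransmitters, taurine, creatine and some amino acids. Amino acids that enter by these routes feed protein synthesis, one-carbon metabolism and the mTORC1 kinase, which senses them at the lysosome.

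Bulk RNA-seq was made from an nEnd line that carries an OCT4-mCherry reporter and is grown on feeder cells in RACL, an RPMI-based medium with Activin A, CHIR99021 and LIF. All 3 bulk groups came from this culture and were separated by flow cytometry on an antibody to PDGFRA, a surface marker of endoderm, and on the reporter: Pdgfra+ cells had PDGFRA alone, DP (double-positive) cells had both, and Oct4+ cells had the reporter alone, with 3 libraries of each. Single-cell libraries were made from Oct4LOF nEnd, a line (EPUc) whose Oct4 gene, Pou5f1, is deleted when 4-hydroxytamoxifen (4OHT) is added. Cells of this line positive for PDGFRA were sorted and cultured with 4OHT (plus 4OHT) or without it (minus 4OHT), 1 library each. The sorts fix levels of PDGFRA and OCT4, not of any transporter. The bulk groups and the single-cell libraries each rest on 1 cell line, and the study calls the 3 libraries of a group biological replicates, while the labels do not say whether they came from separate cultures, so that p-values measure the spread between these libraries.

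Total counts of the bulk libraries ran from 8019631 to 11642571 reads. In CPM (counts of reads scaled to equal library size by TMM), 18 endoderm markers summed to 71899 to 92948 in Pdgfra+, 49757 to 74303 in DP and 919 to 1364 in Oct4+ libraries, and 18 epiblast markers to 360 to 522, 1210 to 2092 and 5767 to 7533. The labels of the 3 groups therefore matched their markers, with DP nearer to Pdgfra+. The 11 markers of cells like those of the early cleavage embryo (Zscan4 and related genes) summed to at most 28.8 CPM outside Oct4+, where they reached 433 to 1493, and 10 fibroblast markers, which feeder cells would carry, reached 156 CPM in Oct4+ replicate 1 against 21.9 and 9.75 in the other Oct4+ libraries and at most 13.5 elsewhere. In bulk samples, fewer cells of a type and less RNA per cell cannot be told apart.

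The 61 transporters together took 2991 to 3178 CPM in Pdgfra+, 3497 to 4113 in DP and 2063 to 2370 in Oct4+, so that the DP libraries lay above and the Oct4+ libraries below all others. As a share of raw reads this was 0.278 to 0.293%, 0.331 to 0.393% and 0.232 to 0.267%. The 6 most abundant transporters of each group held 66.8%, 63.0% and 59.9% of the sum. Of the 61 genes, 32 had a mean of at least 1 CPM in Pdgfra+, 33 in DP and 37 in Oct4+, and 9, 11 and 9 had at least 100 CPM. After a filter on low counts 37 transporters could be tested, and 24 could not, of which 2 (Slc6a18 and Slc7a12) had no read in any library. Just outside the filter lay Slc38a8, with a mean of 1.34 CPM over the 9 libraries, and just inside it Slc6a17, with 0.709 CPM.

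**Figure D1:**
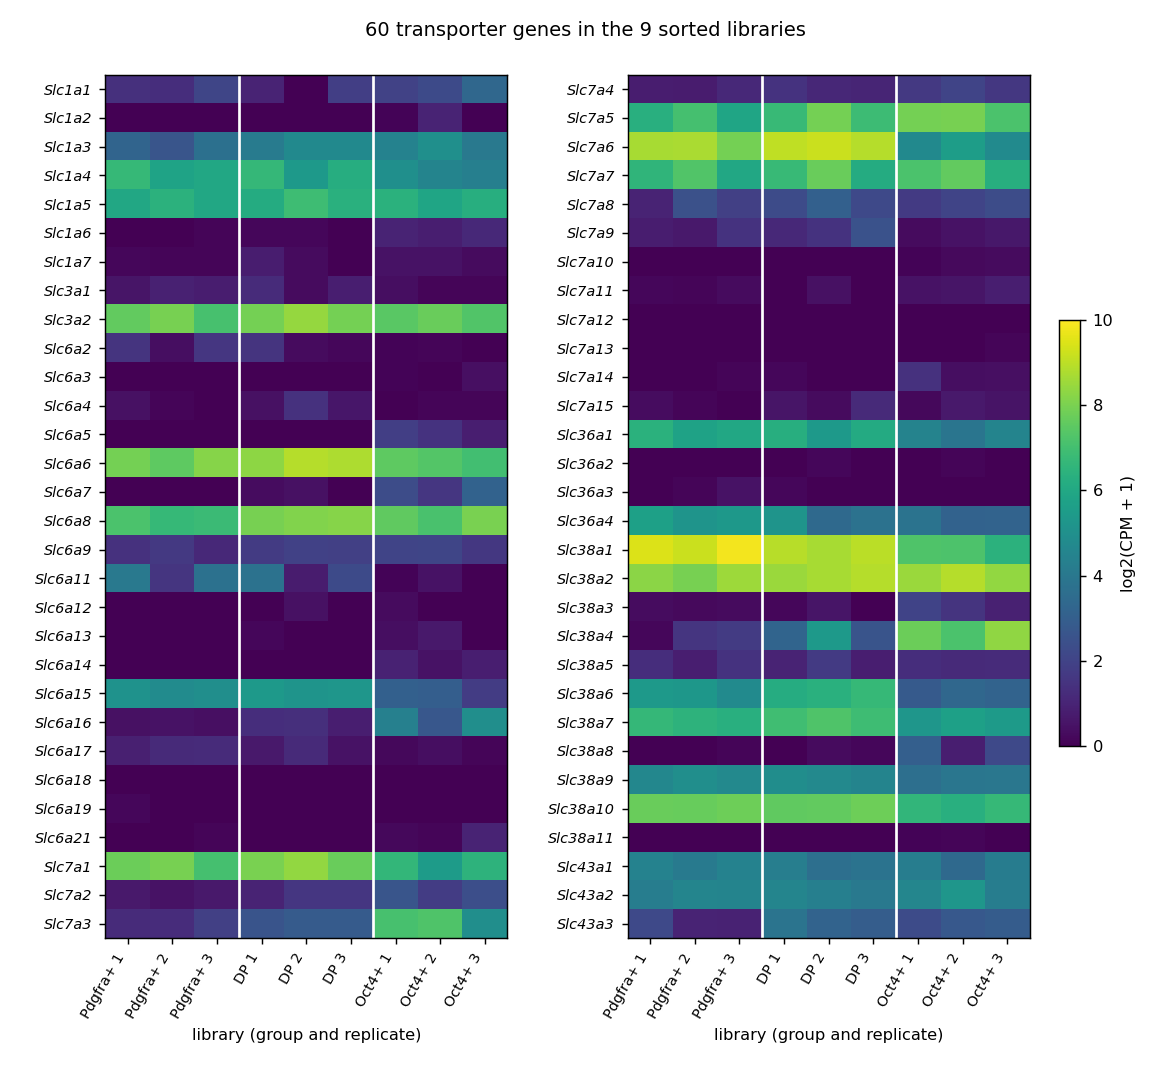
Heat map of the level of 60 transporters (rows, by family) in each of the 9 bulk libraries (columns, 3 Pdgfra+, 3 DP and 3 Oct4+), as log2(CPM + 1). Slc38a1, Slc38a2 and Slc7a6 have the highest means over all libraries, and Slc38a4, Slc7a3 and Slc6a16 stand out in the Oct4+ columns.

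How many transporters differ between the sorted groups was asked with edgeR's quasi-likelihood test across all 14185 genes that passed the filter. The threshold required both an adjusted p (Benjamini-Hochberg) under 0.05 and a log2 fold change of more than 1.5 in size. Between Oct4+ and Pdgfra+, 17 of the 37 tested transporters (45.9%) were past it, against 32% of all genes. Of these, 7 were higher in Oct4+ (background 17.3%) and 10 were lower (14.7%). DESeq2 called 14 higher and 10 lower, and a fit without the filter on low counts 15 higher and 10 lower, so that the larger side depended on the fit. Neither of these fits used the filter that left 37 transporters. Their shares of all genes past the threshold are not given here, so that these counts cannot be set beside 32%. Between DP and Oct4+, 16 of 37 (43.2%) were past it, against 27.7% of all genes, with 11 higher in DP (13.1%) and 5 lower (14.6%). This split depended on the scaling and the tool, since upper quartile scaling gave 8 higher and 6 lower and DESeq2 gave 12 of each. The shares of all genes in these alternatives are likewise not given here. Between DP and Pdgfra+, 2 of 37 (5.41%) were past it, Slc38a4 and Slc43a3, both higher in DP, against 3.89% of all genes (3.2% higher).

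At the adjusted p alone, 26 of 37 transporters (70.3%) changed between Oct4+ and Pdgfra+ against 63.2% of all genes, 21 (56.8%) between DP and Oct4+ against 56.2%, and 5 (13.5%), all higher in DP, between DP and Pdgfra+ against 6.87% (4.62% higher and 2.26% lower). The median log2 fold change of the tested transporters was 0.51 for DP against Pdgfra+, 0.62 for DP against Oct4+ and 0.02 for Oct4+ against Pdgfra+, beside 0.02, -0.04 and 0.01 over all genes. The 3 libraries of a group did not overlap those of the other group for 16, 25 and 25 transporters (43.2%, 67.6% and 67.6%), against 34.2%, 62.6% and 69.3% of all genes. These comparisons share libraries, so that their counts are not independent of each other.

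Replicate numbers of the DP and Pdgfra+ libraries were taken to pair them, because the deviations of same-numbered libraries from their group means correlated at 0.271, 0.477 and 0.321 across genes. The labels do not state such a pairing, which was read from the same counts. Correlations of differently numbered libraries were not set beside these. With the replicate number as a block in a fit of these 6 libraries, 15 of 33 tested transporters passed the adjusted p (45.5%, against 20.2% of all genes), 13 of them higher in DP (background 10.4%) and 2 lower (9.86%). Past the full threshold were 3, Slc38a4, Slc43a3 and Slc7a3, all higher in DP, against 5.69% of all genes (4.11% higher).

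**Figure D2:**
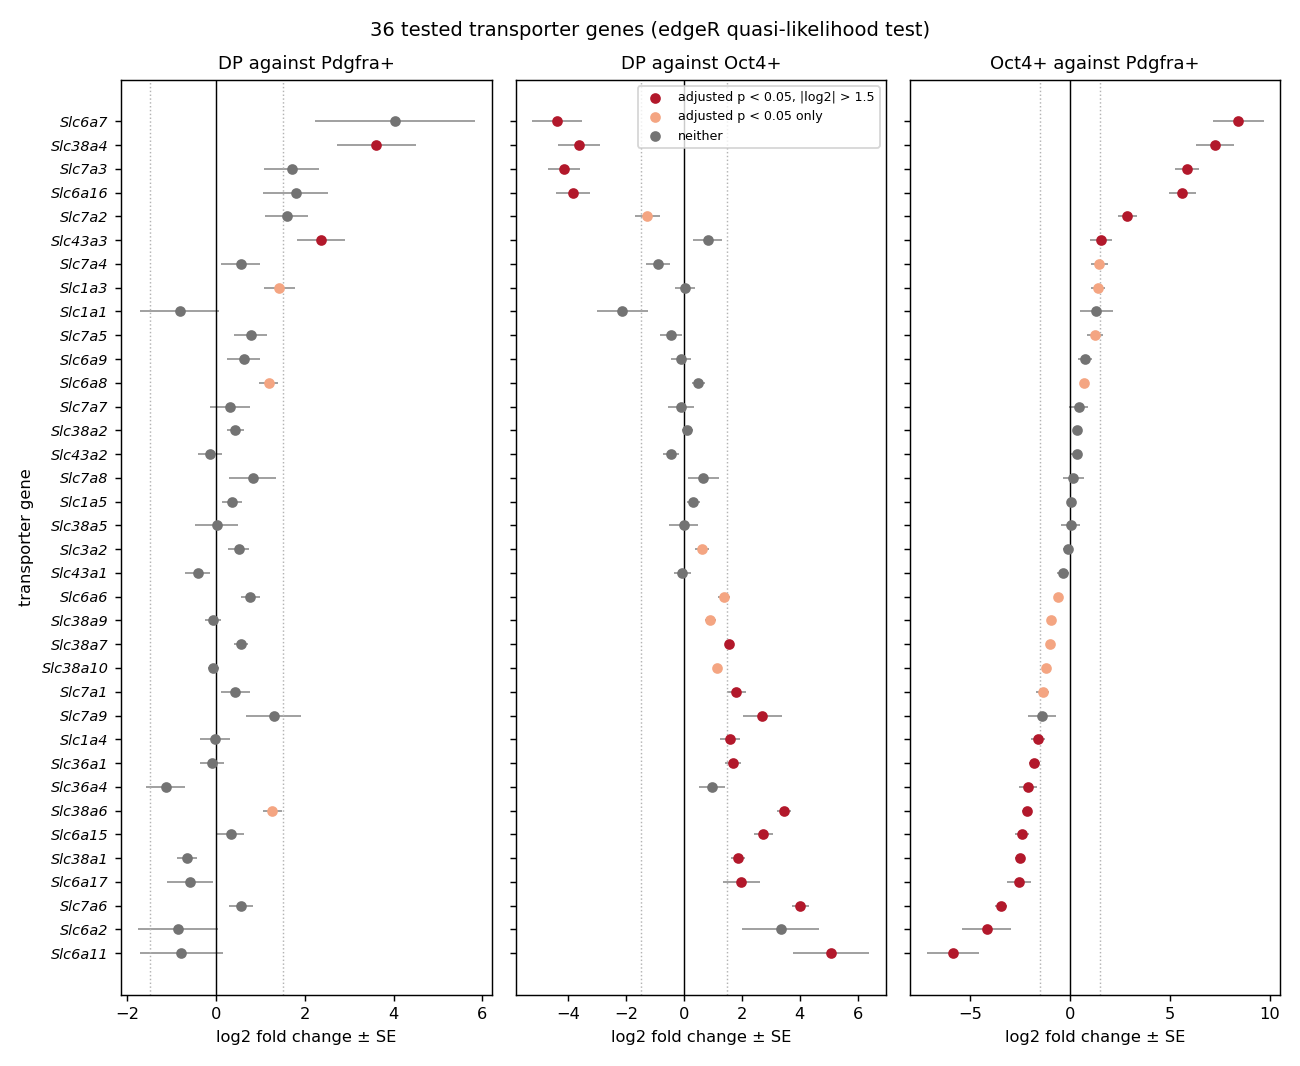
Fitted log2 fold change (x axis) of 36 tested transporters (rows) in the 3 comparisons of the sorted groups, with bars of ± SE from edgeR, colours for genes past the threshold, past the adjusted p alone or neither, and dotted lines at an absolute log2 fold change of 1.5. Values for DP against Pdgfra+ lie mostly near 0, from -1.14 to 4.03, and those involving Oct4+ spread from -5.86 to 8.42; the fitted value of Slc6a7 depends on the prior count, because no Pdgfra+ library had a read of it.

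The 3 system A carriers changed in different directions. On the CPM scale Slc38a4 (SNAT4, best known from liver and placenta) stood at 0.122, 1.89 and 2.30 in the Pdgfra+ libraries, at 8.23, 41.3 and 5.10 in DP and at 214, 143 and 325 in Oct4+. All DP libraries were above all Pdgfra+ libraries and all Oct4+ libraries above both. Slc38a4 was higher in Oct4+ than in Pdgfra+ by a log2 fold change of 7.24 ± 0.93 (SE, adjusted p = 0.000105, edgeR), lower in DP than in Oct4+ by -3.63 ± 0.74 (adjusted p = 0.00209, edgeR) and higher in DP than in Pdgfra+ by 3.61 ± 0.89 (adjusted p = 0.042, edgeR).

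The last of these calls was not stable. Without DP replicate 2, the highest of its group, the log2 fold change between DP and Pdgfra+ was 2.15 (adjusted p = 0.129, edgeR), and leaving out Pdgfra+ replicate 1, 2 or 3 or DP replicate 3 also ended the call, with adjusted p between 0.0546 and 0.118 (edgeR). With the replicate block on the 6 libraries it was 3.38 (adjusted p = 0.0285, edgeR), and with the block on all 9 libraries 3.47 (adjusted p = 0.0536, edgeR). DP replicate 2 also had the highest sums of epiblast markers (2092 CPM against 1210 and 1632) and of Zscan4-related markers (28.8 CPM against 8.85 and 10.7) in DP, and the part of these in the Slc38a4 value was not tested.

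Slc38a1 (SNAT1), the most abundant transporter over the 9 libraries, ran the other way. Its CPM was 713, 581 and 895 in Pdgfra+, 486, 407 and 498 in DP and 149, 148 and 85.0 in Oct4+, with no overlap between the groups. It was lower in Oct4+ than in Pdgfra+ by -2.52 ± 0.24 on the log2 scale (SE, adjusted p = 1.83e-05, edgeR) and higher in DP than in Oct4+ by 1.86 ± 0.24 (adjusted p = 0.000129, edgeR). Between DP and Pdgfra+ its log2 fold change was -0.65 (adjusted p = 0.115, edgeR) without the block and -0.62 (adjusted p = 0.0209, edgeR) with it. Slc38a2 (SNAT2), the carrier induced by amino acid shortage in many cells, stayed in between, at 249 to 370 CPM in Pdgfra+, 361 to 474 in DP and 335 to 468 in Oct4+. No comparison of Slc38a2 passed the test except that with the replicate block, where it was higher in DP than in Pdgfra+ by 0.46 (adjusted p = 0.0472, edgeR).

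These 3 genes lie in a row on the minus strand of chromosome 15 (GRCm38): Slc38a1 at 96571418 to 96642913, Slc38a2 at 96687392 to 96699730, 44.5 kb away, and Slc38a4 at 96994820 to 97055956, a further 295.1 kb away. Neighbouring genes of this cluster thus went down, did not pass the test, and went up in Oct4+ against Pdgfra+.

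Levels of different genes were compared as CPM per kb of annotated exon. Of the summed system A level in CPM per kb, Slc38a1 made up 54.5 ± 0.519% (SD, n = 3) in Pdgfra+, 34.6 ± 5.11% in DP and 7.30 ± 2.73% in Oct4+, while Slc38a4 made up 0.441 ± 0.356%, 5.42 ± 5.83% and 49.98 ± 14.3%. Slc38a2 held 45.1 ± 0.671%, 60.01 ± 3.53% and 42.7 ± 12.04%. The sum itself was 77.6 ± 16.1 CPM per kb in Pdgfra+, 78.3 ± 6.58 in DP and 104 ± 12.8 in Oct4+, with the lowest Oct4+ library (95.1) just above the highest Pdgfra+ library (94.3). So the leading system A gene was Slc38a1 in all 3 Pdgfra+ libraries, Slc38a2 in all 3 DP libraries, and Slc38a4 in Oct4+ replicates 1 and 3 but Slc38a2 in Oct4+ replicate 2. Slc38a1 was divided by 17236 bases, the union of its annotated exons, so that its share would be larger with a shorter transcript.

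**Figure D3:**
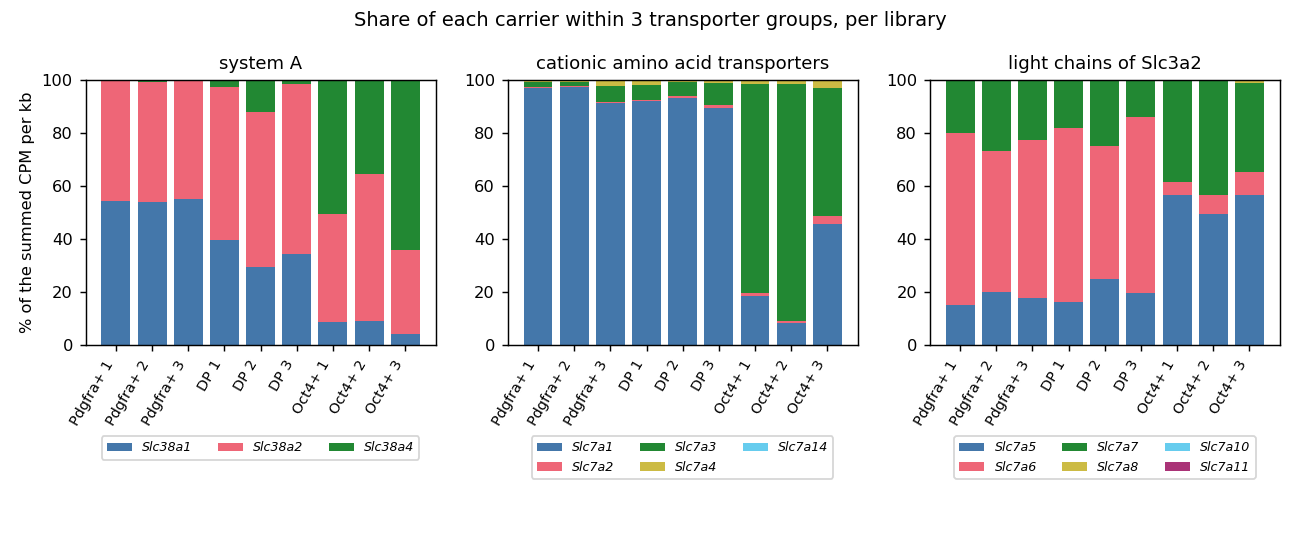
Share of each gene (y axis, % of the summed CPM per kb of its set, stacked and coloured by gene) in each of the 9 bulk libraries (x axis), for system A carriers, cationic amino acid transporters and light chains of Slc3a2. In all 3 sets the leading gene of Pdgfra+ (Slc38a1, Slc7a1, Slc7a6) has a smaller share in Oct4+, where Slc38a4, Slc7a3 and Slc7a5 lead by their mean.

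A change of leading gene was also measured in the cationic amino acid transporters, which bring in arginine and lysine. Slc7a1 (CAT1), the form found in most cells, stood at 213, 247 and 130 CPM in Pdgfra+, 253, 336 and 209 in DP and 97.7, 44.0 and 86.8 in Oct4+. Every Oct4+ library was below every other library. It fell in Oct4+ against Pdgfra+ by -1.37 ± 0.32 on the log2 scale (SE, adjusted p = 0.00409, edgeR), which is inside the fold limit, and was higher in DP than in Oct4+ by 1.80 ± 0.33 (adjusted p = 0.0011, edgeR). Leaving out Pdgfra+ replicate 3 or Oct4+ replicate 1 took the first value to -1.62 (adjusted p = 0.00214, edgeR) or -1.60 (adjusted p = 0.00515, edgeR), past the fold limit.

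Slc7a3 (CAT3), a form known from brain, was at 1.34, 1.40 and 2.71 CPM in Pdgfra+, 5.11, 6.37 and 6.41 in DP and 137, 152 and 29.9 in Oct4+. The groups did not overlap. It was higher in Oct4+ than in Pdgfra+ by 5.85 ± 0.62 on the log2 scale (SE, adjusted p = 3.17e-05, edgeR) and lower in DP than in Oct4+ by -4.15 ± 0.55 (adjusted p = 0.00017, edgeR). Between DP and Pdgfra+ the log2 fold change of Slc7a3 was 1.70 ± 0.62 (adjusted p = 0.124, edgeR), and with the replicate block 1.76 ± 0.32 (adjusted p = 0.0221, edgeR), higher in 3 of 3 pairs. On the CPM per kb scale Slc7a3 made up 3.11 ± 2.32% of the cationic set in Pdgfra+, 6.46 ± 1.64% in DP and 78.8%, 89.2% and 48.1% in the Oct4+ libraries, and Slc7a1 95.1 ± 3.46%, 91.5 ± 1.90% and 24.2 ± 19.3%. Oct4+ replicate 3 stood apart here, with a summed level of 16.4 CPM per kb against 45.9 and 44.9. Slc7a2 (CAT2), named after its values were seen, stayed low at 0.545 ± 0.127 CPM in Pdgfra+ and 3.99 ± 1.39 in Oct4+ and was higher in Oct4+ by 2.85 (adjusted p = 0.000508, edgeR). Slc7a2 was high in the fibroblast-like cells of the single-cell libraries (49.5 CPM minus 4OHT and 106 CPM plus 4OHT), and the part of fibroblast RNA in its bulk values was not tested.

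Among the heteromeric exchangers, no change of the heavy chain Slc3a2 reached the fold limit, while its light chain Slc7a6 was past the threshold in both comparisons with Oct4+. Slc3a2 was at 193, 249 and 134 CPM in Pdgfra+, 242, 338 and 239 in DP and 173, 207 and 153 in Oct4+. Its log2 fold change was 0.62 ± 0.23 for DP against Oct4+ (SE, adjusted p = 0.0426, edgeR) and -0.11 ± 0.23 for Oct4+ against Pdgfra+ (adjusted p = 0.693, edgeR). DP was higher than Pdgfra+ by 0.55 with the replicate block (adjusted p = 0.0291, edgeR) and by 0.51 without it (adjusted p = 0.202, edgeR). The other heavy chain, Slc3a1, which partners Slc7a9 in kidney and gut, was at 0.705 ± 0.205, 0.797 ± 0.568 and 0.173 ± 0.119 CPM and did not pass the filter.

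Slc7a6 (y+LAT2), a light chain that exchanges arginine and glutamine, was at 415, 427 and 238 CPM in Pdgfra+, 532, 593 and 469 in DP and 25.7, 46.0 and 26.5 in Oct4+. Its Oct4+ libraries lay far below all others. Slc7a6 fell in Oct4+ against Pdgfra+ by -3.46 ± 0.30 on the log2 scale (SE, adjusted p = 9.47e-06, edgeR) and was higher in DP than in Oct4+ by 4.02 ± 0.30 (adjusted p = 7.13e-06, edgeR). With the replicate block DP was also higher than Pdgfra+, by 0.62 (adjusted p = 0.0306, edgeR), against 0.56 (adjusted p = 0.221, edgeR) without it. Slc7a5 (LAT1), the main carrier of leucine and other large neutral amino acids in growing cells, went the other way, from 78.1, 132 and 57.8 CPM in Pdgfra+ through 107, 239 and 114 in DP to 240, 249 and 143 in Oct4+. It rose in Oct4+ against Pdgfra+ by 1.24 ± 0.38 (SE, adjusted p = 0.0169, edgeR), inside the fold limit, and by 1.60 (adjusted p = 0.00665, edgeR) without Pdgfra+ replicate 2. With the block Slc7a5 was higher in DP than in Pdgfra+ by 0.78 (adjusted p = 0.0193, edgeR), against 0.78 (adjusted p = 0.235, edgeR) without it. Slc7a7 (y+LAT1), the close relative of Slc7a6, was at 63.6 to 153 CPM in Pdgfra+, 70.6 to 210 in DP and 75.5 to 193 in Oct4+ and passed the test in no comparison.

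Per kb of exon, Slc7a6 made up 59.2 ± 5.97% (SD, n = 3) of the light chains of Slc3a2 in Pdgfra+, 60.6 ± 9.06% in DP and 6.94 ± 1.85% in Oct4+. Slc7a5 made up 17.7 ± 2.58%, 20.3 ± 4.35% and 54.1 ± 4.15%, and Slc7a7 22.7 ± 3.26%, 18.6 ± 5.40% and 38.1 ± 4.598%. The summed level of the light chains over that of Slc3a2 was 2.57, 2.501 and 2.31 in Pdgfra+, 2.59, 2.71 and 2.30 in DP and 2.34, 2.32 and 1.57 in Oct4+, ranges that overlap. By bulk CPM per kb the leading light chain was thus Slc7a6 in every Pdgfra+ and DP library and Slc7a5 in every Oct4+ library. In the epiblast-like single cells described below, Slc7a5 did not lead. Slc7a11, the cystine carrier xCT, was not testable, at a mean of 0.271 CPM over the 9 libraries, as was Slc7a10.

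**Figure D4:**
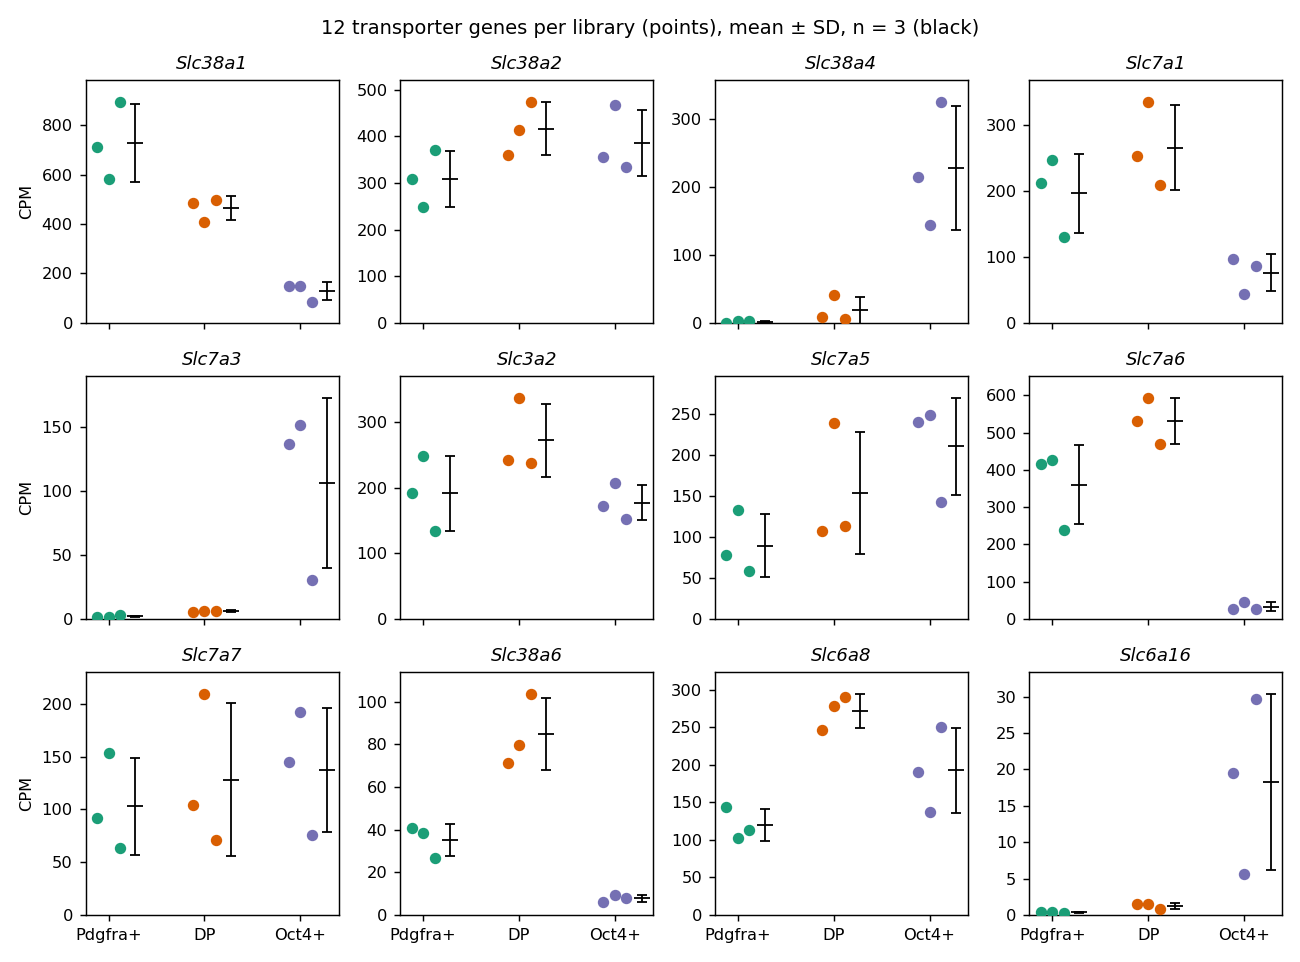
CPM (y axis) of 12 transporters in each library (points) of Pdgfra+, DP and Oct4+ cells (x axis), with the mean and its SD (n = 3). Slc7a6, Slc38a1 and Slc38a6 are lowest in all Oct4+ libraries, Slc38a4, Slc7a3 and Slc6a16 highest, and Slc38a6 and Slc6a8 are higher in every DP than in every Pdgfra+ library.

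Promoter sequence was set beside these values for a few genes, chosen by hand, that went in opposite directions. RefSeq windows of 300 bases (GRCm38.p6), from 250 bases before to 50 bases after an annotated start, were at hand for 43 of the 61 transporters. Slc38a4 and Slc6a16 were higher in Oct4+ than in Pdgfra+, and Slc7a6, Slc38a6 and Slc1a4 lower. The windows are printed 5′ to 3′ on the strand of the gene, with CG dinucleotides in capitals: Slc38a4 is chr15:97055907-97056206 on the minus strand, Slc6a16 is chr7:45240503-45240802 on the plus strand, Slc7a6 is chr8:106168604-106168903 on the plus strand, Slc38a6 is chr12:73286598-73286897 on the plus strand and Slc1a4 is chr11:20332664-20332963 on the minus strand.
Slc38a4: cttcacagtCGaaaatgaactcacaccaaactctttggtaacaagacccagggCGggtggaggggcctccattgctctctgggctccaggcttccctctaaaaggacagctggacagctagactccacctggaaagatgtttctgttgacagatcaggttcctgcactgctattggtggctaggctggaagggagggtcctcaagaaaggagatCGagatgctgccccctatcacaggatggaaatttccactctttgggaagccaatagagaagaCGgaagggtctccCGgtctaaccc
Slc6a16: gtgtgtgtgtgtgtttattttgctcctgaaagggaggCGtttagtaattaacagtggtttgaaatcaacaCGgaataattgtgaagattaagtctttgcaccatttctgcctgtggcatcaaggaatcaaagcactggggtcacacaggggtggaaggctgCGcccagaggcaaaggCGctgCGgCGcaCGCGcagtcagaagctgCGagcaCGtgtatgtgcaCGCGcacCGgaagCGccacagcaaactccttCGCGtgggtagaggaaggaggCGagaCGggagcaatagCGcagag
Slc7a6: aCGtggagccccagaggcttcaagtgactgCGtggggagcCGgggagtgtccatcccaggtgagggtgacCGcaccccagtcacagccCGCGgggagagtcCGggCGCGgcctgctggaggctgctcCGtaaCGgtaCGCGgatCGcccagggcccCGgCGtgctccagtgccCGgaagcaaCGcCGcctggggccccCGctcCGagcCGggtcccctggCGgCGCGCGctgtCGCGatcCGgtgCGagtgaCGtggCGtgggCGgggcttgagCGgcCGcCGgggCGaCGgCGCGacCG
Slc38a6: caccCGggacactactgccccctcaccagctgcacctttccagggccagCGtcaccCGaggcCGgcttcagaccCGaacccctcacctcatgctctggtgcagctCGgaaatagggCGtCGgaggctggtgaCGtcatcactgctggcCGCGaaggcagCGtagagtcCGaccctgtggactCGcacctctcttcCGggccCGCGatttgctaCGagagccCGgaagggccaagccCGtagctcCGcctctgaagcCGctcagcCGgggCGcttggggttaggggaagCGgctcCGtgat
Slc1a4: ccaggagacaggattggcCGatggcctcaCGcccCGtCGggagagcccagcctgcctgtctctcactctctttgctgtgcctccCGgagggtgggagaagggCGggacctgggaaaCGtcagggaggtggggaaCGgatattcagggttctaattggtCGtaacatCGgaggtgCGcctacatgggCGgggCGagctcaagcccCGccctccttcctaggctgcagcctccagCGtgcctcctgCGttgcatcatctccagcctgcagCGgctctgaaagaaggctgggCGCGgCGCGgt
The windows hold 5 CG dinucleotides for Slc38a4, 19 for Slc6a16, 41 for Slc7a6, 26 for Slc38a6 and 21 for Slc1a4, beside a median of 7 over all 32851 windows, with quartiles of 3 and 20, and of 10 over the 64 windows of transporters. GC content was 53%, 54%, 75.7%, 66.7% and 65%. Only the first window of a gene is printed. Further annotated starts gave windows with 5 CG dinucleotides each for Slc38a4 (46.7% and 45.3% GC) and 42 for Slc7a6 (76.7% GC). The other transporters lower in Oct4+ that had a window held 15 (Slc36a1), 32 (Slc36a4), 32 (Slc6a11), and 26 and 3 (Slc6a17). Whether CG content goes with direction was not tested. The core of the C/EBP-ATF response element, TGATGNAA, searched on both strands, was found in 5 of the 64 transporter windows (7.81%) and in 3.97% of all windows. It lay in windows of Slc1a4, Slc6a21, Slc7a11 and Slc7a7. In Slc1a4 the match began 4 bases before the start and ran across it. The octamer ATGCAAAT, likewise on both strands, was found in 2 transporter windows (3.12%), those of Slc6a12 and Slc7a11, and in 1.74% of all windows, and in Slc7a11 it overlapped a TGATGNAA match. Such a match describes the letters of a window and shows neither binding nor regulation.

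Of the 6 other Slc38a genes, not grouped here with systems A and N, 4 could be tested. All 4 were lower in Oct4+ at the adjusted p alone in both comparisons with it (background 28.3% higher in DP than in Oct4+ and 31.5% lower in Oct4+ than in Pdgfra+). The untested Slc38a8 ran the other way, with 133 reads over the Oct4+ libraries and 1 over the Pdgfra+ libraries. Slc38a6 (SNAT6) was at 40.5, 38.6 and 26.6 CPM in Pdgfra+, 71.3, 79.5 and 104 in DP and 6.12, 9.17 and 8.09 in Oct4+. It peaked in DP with no overlap: DP was higher than Pdgfra+ by 1.27 ± 0.22 on the log2 scale (SE, adjusted p = 0.0173, edgeR) and higher than Oct4+ by 3.45 ± 0.24 (adjusted p = 5.34e-06, edgeR), and Oct4+ was lower than Pdgfra+ by -2.18 ± 0.24 (adjusted p = 3.64e-05, edgeR). Slc38a7 (SNAT7), which exports glutamine from lysosomes, was at 77.4 to 99.0 CPM in Pdgfra+, 119 to 149 in DP and 37.6 to 50.1 in Oct4+. It was higher in DP than in Oct4+ by 1.57 ± 0.16 (adjusted p = 3.69e-05, edgeR), and under upper quartile scaling by 1.35, within the fold limit, as also with a stricter filter (1.48) and without DP replicate 2 (1.47) or Oct4+ replicate 1 (1.48). Slc38a10 fell from 202 to 221 CPM in Pdgfra+ to 79.1 to 102 in Oct4+, by -1.20 ± 0.13 (adjusted p = 4.05e-05, edgeR), and Slc38a9, the lysosomal arginine sensor of mTORC1, from 26.4 ± 3.27 to 13.5 ± 1.60 CPM, by -0.98 ± 0.19 (adjusted p = 0.00135, edgeR). Slc38a9 shares annotated bases with another gene on its strand, so that its counts are uncertain in that sense. System N carries glutamine and histidine, and the genes grouped under it here, Slc38a5 and Slc38a3, were barely measured. Slc38a5 had 1.35, 1.34 and 1.36 CPM in the 3 groups, and Slc38a3 did not pass the filter, with 66 reads over the Oct4+ libraries and 6 over the Pdgfra+ libraries.

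Both testable proton-coupled carriers were lower in Oct4+ than in Pdgfra+. Slc36a1 (PAT1), which moves proline and glycine out of lysosomes, was at 82.8, 53.1 and 62.2 CPM in Pdgfra+, 76.4, 41.2 and 68.9 in DP and 21.2, 13.9 and 22.1 in Oct4+. It fell in Oct4+ by -1.79 ± 0.28 on the log2 scale (SE, adjusted p = 0.000325, edgeR), and was higher in DP than in Oct4+ by 1.71 ± 0.28 (adjusted p = 0.000568, edgeR), with 1.49 under upper quartile scaling. Slc36a4 (PAT4) was at 51.0, 35.5 and 39.7 CPM in Pdgfra+, 34.9, 9.56 and 12.8 in DP and 13.1, 7.79 and 8.09 in Oct4+. DP replicate 1 was near the Pdgfra+ libraries, and the other DP libraries were near Oct4+. Slc36a4 fell in Oct4+ by -2.11 ± 0.45 (adjusted p = 0.00215, edgeR). Between DP and Pdgfra+ its value was -1.14 ± 0.43 (adjusted p = 0.138, edgeR), -1.30 ± 0.27 with the replicate block (adjusted p = 0.0258, edgeR) and -1.91 without DP replicate 1 (adjusted p = 0.0121, edgeR).

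In the Slc1a family the neutral exchangers split. Slc1a4 (ASCT1), which carries serine, alanine and cysteine, was at 102, 55.3 and 62.7 CPM in Pdgfra+, 100, 41.3 and 75 in DP and 30.9, 21.7 and 19.2 in Oct4+. It was lower in Oct4+ than in Pdgfra+ by -1.61 ± 0.35 on the log2 scale (SE, adjusted p = 0.00231, edgeR) and higher in DP than in Oct4+ by 1.59 ± 0.35 (adjusted p = 0.00306, edgeR). Both values fell within the fold limit under upper quartile scaling (-1.36 and 1.37) and without Oct4+ replicate 3 (-1.48 and 1.46), and the first also without Pdgfra+ replicate 1 (-1.28) and the second without DP replicate 1 (1.31). Slc1a5 (ASCT2), a glutamine exchanger, was at 62.1 to 84.0, 70.4 to 119 and 57.6 to 83.6 CPM and passed no test. Of the glutamate and aspartate carriers, Slc1a3 (GLAST) rose from 8.42, 5.18 and 11.9 CPM in Pdgfra+ to 16.8, 26.0 and 25.8 in DP (1.43 ± 0.36, adjusted p = 0.0433, edgeR) and 20.7, 30.7 and 15.3 in Oct4+ (1.39 ± 0.35, adjusted p = 0.0062, edgeR). A predicted gene overlaps Slc1a3 on the same strand.

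The Slc6a family held 19 genes, 10 of which could be tested. Slc6a6, the taurine transporter, and Slc6a8, the creatine transporter, were its most abundant members, and both had their highest mean in DP. Slc6a8 was at 144, 102 and 113 CPM in Pdgfra+, 246, 278 and 290 in DP and 190, 137 and 250 in Oct4+. It was higher in DP than in Pdgfra+ by 1.18 ± 0.21 on the log2 scale (SE, adjusted p = 0.0183, edgeR), higher in Oct4+ than in Pdgfra+ by 0.69 ± 0.21 (adjusted p = 0.0168, edgeR), and 0.50 apart between DP and Oct4+ (adjusted p = 0.0681, edgeR). Slc6a6 was at 241, 183 and 291 CPM in Pdgfra+, 318, 467 and 431 in DP and 185, 159 and 124 in Oct4+. The DP libraries were above all others. Slc6a6 was higher in DP than in Oct4+ by 1.38 ± 0.22 (adjusted p = 0.000497, edgeR), past the fold limit at 1.56 without DP replicate 1 and 1.53 without Oct4+ replicate 1. It was higher in DP than in Pdgfra+ by 0.77 (adjusted p = 0.0615, edgeR) without the block and 0.79 (adjusted p = 0.0357, edgeR) with it. A predicted gene overlaps Slc6a6 on the same strand.

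Slc6a11 (GAT3), a GABA transporter on the plus strand of chromosome 6 (114131241 to 114249952, GRCm38), had 15.6, 1.89 and 12.2 CPM in Pdgfra+, 12.7, 0.708 and 3.79 in DP and 0.0775, 0.394 and 0 in Oct4+. It varied widely within Pdgfra+ and DP, with replicate 2 lowest in both. Slc6a11 was lower in Oct4+ than in Pdgfra+ by -5.86 ± 1.32 (SE, adjusted p = 0.00303, edgeR), with 264 reads against 5, a ratio of 61 (25.8 to 189, an exact 95% counting interval that covers counting error only).

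Slc6a16, an orphan member of the family, was at 0.366, 0.399 and 0.313 CPM in Pdgfra+, 1.5, 1.53 and 0.784 in DP and 19.5, 5.62 and 29.7 in Oct4+. Its groups did not overlap. It was higher in Oct4+ than in Pdgfra+ by 5.62 ± 0.67 (SE, adjusted p = 6.69e-05, edgeR) and lower in DP than in Oct4+ by -3.82 ± 0.59 (adjusted p = 0.000402, edgeR). Slc6a15 (B0AT2), which carries branched-chain amino acids and proline, went the other way, at 27.3 to 33.2 CPM in Pdgfra+, 34.7 to 41.6 in DP and 2.44 to 7.36 in Oct4+, a fall of -2.42 ± 0.33 in Oct4+ against Pdgfra+ (adjusted p = 0.000155, edgeR). The proline carrier Slc6a7, named after its values were seen, had 142 reads over the Oct4+ libraries and 0 over the Pdgfra+ libraries, at least 41.0-fold higher against a floor of 3 reads over the group.

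In the Slc43a family, Slc43a3, a purine nucleobase carrier rather than an amino acid one, was at 3.66, 0.996 and 0.939 CPM in Pdgfra+, 13.6, 8.02 and 6.80 in DP and 3.88, 5.82 and 6.43 in Oct4+. DP was above both other groups with no overlap. It was higher in DP than in Pdgfra+ by 2.36 ± 0.54 on the log2 scale (SE, adjusted p = 0.0354, edgeR), and by 2.5 ± 0.33 with the replicate block (adjusted p = 0.0184, edgeR). Leaving out Pdgfra+ replicate 2 or 3 or any of the DP libraries ended this call, with values of 2.01 to 2.55 and adjusted p between 0.0616 and 0.125 (edgeR), as did a fit of the 6 libraries without the block (2.38, adjusted p = 0.0526, edgeR). Between Oct4+ and Pdgfra+ Slc43a3 differed by 1.54 ± 0.54 (adjusted p = 0.0294, edgeR), and the call ended without Pdgfra+ replicate 2 or 3 or Oct4+ replicate 2 or 3, at 1.19 to 1.47. Slc43a1 (LAT3) and Slc43a2 (LAT4), facilitators for leucine and related amino acids, had 14.4 to 25.9 CPM in all group means and passed no test.

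Related genes outside the symbol rule were taken as 4 lists and are given by counts past the threshold. Among enzymes that use the carried amino acids, 28 of 29 could be tested, and 11 were higher and 3 lower in Oct4+ than in Pdgfra+ (background 17.3% and 14.7%), with a median log2 fold change of 0.71 beside 0.01 over all genes. Bcat1, which starts the breakdown of branched-chain amino acids in the cytosol, was at 21.5 ± 15.5 CPM in Pdgfra+, 159 ± 49.0 in DP and 526 ± 152 in Oct4+ (SD, n = 3), the only enzyme past the threshold between DP and Pdgfra+ (2.90, adjusted p = 0.0171, edgeR). Cth, which makes cysteine from cystathionine, was at 2.06 ± 0.46 CPM in Pdgfra+ and 81.0 ± 35.2 in Oct4+ (5.28, adjusted p = 5.42e-06, edgeR). Of 15 testable carriers from other families, 3 were higher and 4 lower in Oct4+ than in Pdgfra+ (background 17.3% and 14.7%), with a median log2 fold change of -0.60 beside 0.01 over all genes, and the lower ones included the lysosomal cystine exporter Ctns (105 ± 44.0 to 12.9 ± 2.11 CPM) and the lysosomal carrier of cationic amino acids Slc66a1 (40.5 ± 2.05 to 9.14 ± 1.04 CPM).

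Of 20 genes of the integrated stress response, in which ATF4 drives many transporters and biosynthetic enzymes, 2 were higher and 3 lower in Oct4+ than in Pdgfra+ (background 17.3% and 14.7%), with a median log2 fold change of -0.25 beside 0.01 over all genes. Atf4 itself was at 150 ± 6.07 CPM in Pdgfra+ and 110 ± 43.5 in Oct4+ and did not pass the test (adjusted p = 0.122, edgeR), whereas asparagine synthetase, Asns, was at 54.6 ± 15.8, 134 ± 45.6 and 409 ± 83.4 CPM in Pdgfra+, DP and Oct4+ (2.91 between Oct4+ and Pdgfra+, adjusted p = 2.66e-05, edgeR) and Atf3 at 92.3 ± 30.8, 72.2 ± 12 and 8.22 ± 6.65. Of 32 genes that sense amino acids upstream of mTORC1, 2 were higher and 1 lower in Oct4+ than in Pdgfra+ (background 17.3% and 14.7%), while 5 were higher and 13 lower at the adjusted p alone (background 31.8% and 31.5%). Rragd, a Rag GTPase of the lysosomal surface, rose from 3.25 ± 0.822 to 39.3 ± 6.46 CPM (3.60, adjusted p = 7.62e-06, edgeR). The genes named here were chosen from these lists after their values were seen.

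Single cells were used to see the same transporters within cell classes of Oct4LOF nEnd. After filtering, 5324 of 6896 barcodes minus 4OHT and 6299 of 7283 plus 4OHT were kept, at medians of 17948 and 12647 UMIs. The libraries shared 21 barcode sequences. Clustering without the transporters gave endoderm-like cells (1374 cells, 25.8% of minus 4OHT and 6060 cells, 96.2% of plus 4OHT), epiblast-like cells (2367 cells, 44.5%, all minus 4OHT), small trophectoderm-like and fibroblast-like classes, and 1 unnamed cluster. The unnamed cluster held 1459 cells (27.4%) minus and 5 plus 4OHT. Epiblast markers summed to 8453 CPM over its cells and 14 of them were at least 2-fold higher there than in other cells. Its 10 leading genes held none of them and included the cleavage-stage genes Zscan4d and Tcstv3. It was kept out of the epiblast-like class and of the comparisons below. Cluster 0, named endoderm-like, likewise had no endoderm marker among its 10 leading genes. At Leiden resolution 0.5, Zscan4-related markers summed to 1413 CPM in a separate cluster of 130 cells. Another cluster of 1345 cells, all minus 4OHT, had 13 epiblast markers at least 2-fold higher and a Zscan4-related sum of 4.62 CPM. The epiblast-like class may thus leave out cells of that kind. In the unnamed cluster minus 4OHT, Slc38a4 was at 62.2 CPM, Slc7a3 at 55.4 CPM and Slc7a6 at 7.70 CPM. The class names rest on markers, and since each condition is 1 library there is no test, and all intervals below are 95% counting intervals that cover counting error only. Pou5f1, the deleted gene, was at 15.2 CPM in endoderm-like cells minus 4OHT and 1.74 CPM plus 4OHT, and whether the counted 3′ tags lie in the deleted part is not given in the sources used here.

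Within the minus 4OHT library, epiblast-like and endoderm-like cells differed in 8 of the 14 transporters with at least 20 CPM in either class by a ratio of at least 1.5, 2 higher and 6 lower in epiblast-like cells, against 20.5% and 30.2% of all 6650 genes at that level. Slc38a4 was at 10.7 CPM in endoderm-like and 85.8 CPM in epiblast-like cells, a ratio of 8.05 (7.06 to 9.21), and Slc7a3 at 4.61 and 43.9 CPM, a ratio of 9.52 (7.81 to 11.7). Slc7a6 was 13.2-fold (11.8 to 14.7) higher in endoderm-like cells, at 110 against 8.36 CPM. The other cationic transporter, Slc7a1, stood at 65.8 CPM in endoderm-like and 45.6 CPM in epiblast-like cells, within the fold of 1.5. The other lower ones were Slc6a8 (a ratio of 0.248), Slc38a10 (0.263), Slc38a7 (0.414), Slc38a1 (0.430, 240 against 103 CPM) and Slc6a6 (0.485). Slc6a8, at 78.3 CPM in endoderm-like and 19.4 CPM in epiblast-like cells, went against its bulk direction. In bulk it was higher in Oct4+ than in Pdgfra+ at the adjusted p alone, with its highest mean in DP. Slc3a2 (1.37), Slc7a7 (1.48), Slc38a2 (0.839), Slc1a5 (0.990) and Slc1a3 (1.09) did not reach the fold. The genes that led in bulk Oct4+ by their mean did not lead in epiblast-like cells by CPM, here not divided by length. Slc7a7 (50.6 CPM) was above Slc7a5 (14.6 CPM), and Slc7a1 was near Slc7a3 (45.6 and 43.9 CPM). Slc38a2 (108 CPM) and Slc38a1 (103 CPM) were above Slc38a4 (85.8 CPM). Nanog, an epiblast gene, was at 12.7 CPM in these endoderm-like cells and 197 CPM in the epiblast-like ones, and the part of free or mixed RNA in the low values was not tested.

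Endoderm-like cells were then compared across 4OHT. With 1 library per condition, deletion and library cannot be told apart. Of 14 transporters at 20 CPM or more, 1 was at least 1.5 times higher plus 4OHT and 3 were lower by as much, against 22.3% and 9.42% of 6812 genes. Slc1a4 was at 18.6 CPM minus and 38.7 CPM plus 4OHT, a ratio of 2.08 (1.88 to 2.31). Lower plus 4OHT were Slc7a7 (34.2 to 17.1 CPM, 0.499, 0.457 to 0.546), Slc1a5 (51.9 to 32.8 CPM, 0.632, 0.590 to 0.677) and Slc6a8 (78.3 to 50.03 CPM, 0.639, 0.604 to 0.676). The heavy chain Slc3a2 (150 to 145 CPM), Slc7a6 (110 to 114 CPM), Slc38a2 (129 to 125 CPM) and Slc6a6 (112 to 115 CPM) had ratios of 0.965 to 1.04. Slc38a4, below 20 CPM, went from 10.7 to 0.656 CPM and Slc7a3 from 4.61 to 0.855 CPM, and Nanog in the same cells from 12.7 to 0.0819 CPM.

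Different clusters held most endoderm-like cells of the 2 libraries. Cluster 0 had 636 cells minus and 6035 plus 4OHT, and cluster 4, led by Amn and Cubn, the receptors of visceral endoderm that take up protein, had 738 and 25. Minus 4OHT, epiblast markers summed to 4752 CPM in cluster 4 and to 1168 CPM in cluster 0. Endoderm markers at least 2-fold higher than in other cells were 5 in cluster 4 and 15 in cluster 0. The part of this in the endoderm-like ratios was not tested. In cluster 0 alone, an alternative added after the data were seen, 2 of 12 transporters passed the fold, both higher plus 4OHT (background 7.38% higher and 2.23% lower): Slc1a4 (1.54, 1.34 to 1.78) and Slc6a8, which turned direction (31.4 to 50.1 CPM, 1.59, 1.40 to 1.82). Slc1a5 (0.761) and Slc7a7 (0.875) did not. Slc7a6 (1.498, 1.38 to 1.63) and Slc3a2 (1.47, 1.37 to 1.58), flat over both clusters, were just within the fold in cluster 0. Slc38a1 was 1.28 over both clusters and 0.860 in cluster 0. Within the minus 4OHT library Slc6a8 was at 31.4 CPM in cluster 0 and 105 CPM in cluster 4, Slc7a7 at 19.5 and 42.3 CPM, Slc38a4 at 1.88 and 15.5 CPM and Slc7a1 at 38.7 and 80.9 CPM, whereas Slc38a1 was at 357 and 175 CPM. Of the 4 transporters past the fold over both clusters, Slc1a4 alone was past it in the same direction in cluster 0; the part of the cluster shares in the other ratios was not tested.

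**Figure D5:**
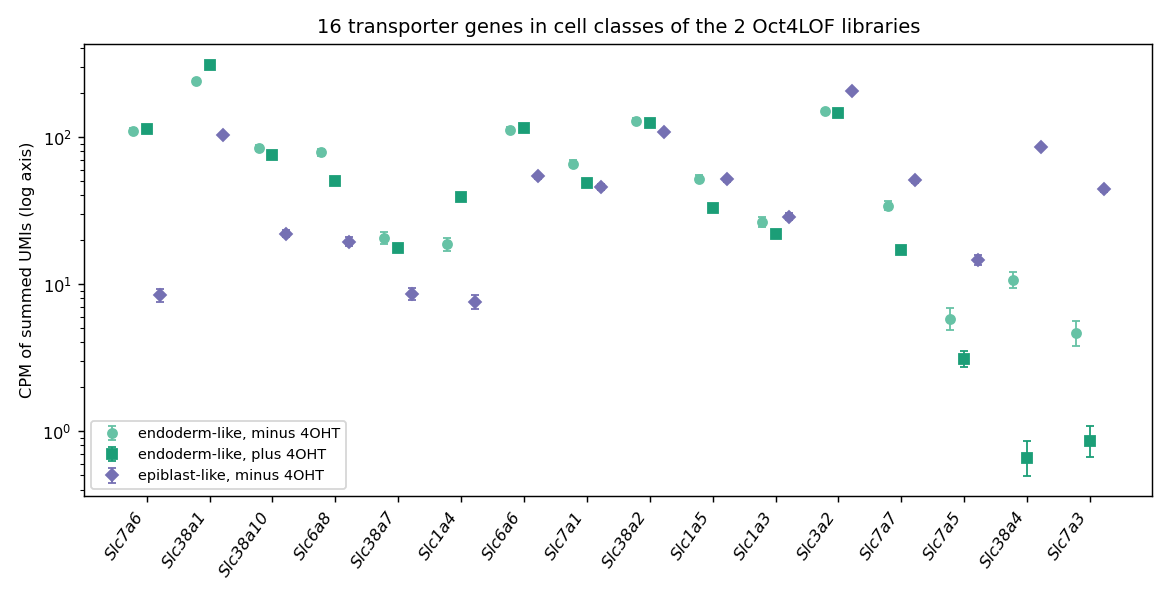
CPM (log y axis) of 16 transporters in endoderm-like cells minus and plus 4OHT and in epiblast-like cells minus 4OHT, from summed UMIs of 1 library per condition, with 95% Poisson intervals of counting error. Slc38a4 and Slc7a3 are higher in epiblast-like than in endoderm-like cells and Slc7a6 is lower.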

How the data were processed

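The bulk table held raw read counts per gene symbol, which the authors deposited for 9 stranded single-end libraries. How these reads were aligned and counted (tools, genome build, annotation, use of strand) is not given in the sources used here. Single-cell tables held raw UMI counts per gene and barcode, deposited by the authors and made with Cell Ranger 6.1.2 per the file headers, against mm10 as the study's methods state. The 35 blank lines of the bulk table had neither a name nor a value and were left out, and 0 per-sample columns belonged to no sample.

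For the bulk counts, edgeR 4.0.16 was run in R 4.3.3. The filterByExpr function left 14185 genes, 37 of them transporters, scaling was by TMM, and the 9 libraries entered 1 quasi-likelihood model by group without covariates, tested by glmQLFTest, with Benjamini-Hochberg adjustment over all genes. The study used DESeq2, an alternative here (DESeq2 1.42.0). SEs were obtained by dividing the absolute log2 fold change by the root of F. All pairs of libraries within a group differed beyond sampling noise (chi-square of 16.7 to 36.6 per degree of freedom), and each was entered as a replicate. Such a spread cannot show whether the libraries came from separate cultures or sorts. Same-numbered DP and Pdgfra+ libraries deviated together and were taken as pairs, while for DP and Oct4+ the correlations were 0.0222, -0.0728 and 0.152 and for Oct4+ and Pdgfra+ 0.0383, -0.00412 and -0.0465. CPM per kb used the union of exons of GENCODE M21, in which all 61 symbols were found. Promoter windows came from RefSeq (GRCm38.p6).

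Single cells were handled in Python 3.11.15 with scanpy 1.11.5: cells with at least 1000 genes and at most 10% mitochondrial UMIs were kept and clustered on 2000 variable genes without the transporters, 20 principal components and Leiden resolution 0.2. Clusters were named from fixed markers. Scrublet marked 173 cells (3.25%) minus 4OHT and 1 cell (0.0159%) plus 4OHT, so that it had not worked in the latter, and doublets were kept. UMIs were summed per library and class and given as CPM with exact Poisson intervals and exact conditional intervals of ratios. The bulk and single-cell steps were tested on simulated data.

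The transporters and the gene lists were chosen with earlier results of these data known. Named with values were transporters past the threshold with a mean of at least 5 CPM in the higher group, the 20 most abundant ones, Slc3a1 and Slc3a2, those past a 1.5-fold ratio at 20 CPM or more in single cells, and those next to the filter limit; other named genes are said to be chosen after their values were seen. The result for 1 transporter is not reported here, though the counts include it. Alternatives were other scalings, DESeq2, no or a stricter filter, fewer libraries, the replicate block, leaving out each library, and other settings for cells.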

Additional observations from a re-analysis of the deposited data

How the results depend on the processing

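Direction held for every named transporter with a call in the bulk comparisons: of 1002 values over 72 pairs of a named transporter and a comparison, 964 kept their side of the threshold, 38 in 12 pairs changed it and 0 changed direction with a call. Upper quartile scaling moved the median of all genes by -0.22 on the log2 scale for DP against Oct4+ and by 0.25 for Oct4+ against Pdgfra+. For DP against Pdgfra+ (2 past the threshold) the count was 1 in a fit of the 6 libraries alone (Slc7a3 in place of both) and ranged from 0 to 3 when 1 library was left out, at 0 without Pdgfra+ replicate 2 or 3 or DP replicate 2 or 3. For DP against Oct4+ (16) it was 26 with no filter on low counts (13 higher and 13 lower), 24 with DESeq2, 14 with upper quartile scaling, 12 with a stricter filter and 15 to 21 with 1 library left out. For Oct4+ against Pdgfra+ (17; 7 higher and 10 lower) it was 25 with no filter (15 higher), 24 with DESeq2 (14 higher), 18 with upper quartile scaling (9 higher and 9 lower), 13 with a stricter filter and 17 to 22 with 1 library left out. The unfiltered fit tests more of the low transporters, and DESeq2 was also run without that filter. The cause of the other differences was not tested. These alternative counts stand without the share of all genes, so that they do not set transporters against other genes.

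The replicate block rests on the pairing read from the counts. With it the count past the threshold for DP against Pdgfra+ was 1 on all 9 libraries. On the 6 compared it was 3 (9.09% of those tested, against 5.69% of all genes). For DP against Oct4+ the block gave 18 and 15, and for Oct4+ against Pdgfra+ 17 and 16, where same-numbered libraries were not taken as pairs. Shares of all genes for the other block counts are not given here, so that these counts do not set transporters against other genes. The block on the 6 libraries moved the calls given beside the results above.

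In endoderm-like cells, 4 of 14 transporters passed the fold across 4OHT (1 higher and 3 lower), against 31.8% of all genes. Over the whole library, with every barcode and every cell class included, the count was 9 of 15 (6 higher and 3 lower). There 55.9% of all genes passed the fold (36.8% higher and 19.1% lower), so that the larger count was near the share of all genes. In cluster 0 alone, added after the data were seen, the count was 2 of 12, against 9.61% of all genes. The ratio of Slc6a8, 0.639 over endoderm-like cells, turned to 1.46 over the whole library and 1.59 in cluster 0. Other cell settings gave 3 to 6 transporters past the fold, against 28.2% to 31.8% of all genes. With 3 libraries a group, and 1 library per condition in single cells, transporters near 1 CPM are measured by few reads, and their ratios have wide intervals.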

Other observations

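Other cell classes of the single-cell libraries held further transporter levels, given here as values without a test. In the 202 trophectoderm-like cells plus 4OHT, Slc38a4 was at 194 CPM and Slc1a5 at 108 CPM, above the 0.656 and 32.8 CPM of the endoderm-like cells in the same library. In the 104 cells of this class minus 4OHT they were at 48.7 and 43.8 CPM. Pou5f1 (18.9 CPM) and Nanog (27.7 CPM) were also higher in the class plus 4OHT than in those endoderm-like cells (1.74 and 0.0819 CPM). Trophectoderm markers summed to 258 CPM in the class plus 4OHT but to 59.9 CPM minus 4OHT, below the 104 CPM of epiblast-like cells, so that its name is weak there. Among transporters that did not pass the bulk filter, Slc38a8 had 133 reads over the 3 Oct4+ libraries and 1 read over the Pdgfra+ libraries, a ratio of 115 (95% counting interval 20.3 to 4580), and Slc38a3, a system N carrier, had 66 reads against 6, a ratio of 9.52 (4.15 to 26.9). Both intervals pool the reads of a group and cover counting error only, not the spread between its libraries. Slc6a5, a glycine carrier, had 59 reads in Oct4+ and 0 in Pdgfra+ and in DP, at least 17-fold higher than Pdgfra+ against a floor of 3 reads over the group. These genes were chosen after their values were seen.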
